A study of Homo sapiens with 6 samples.

Results

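The beta-globin locus on the short arm of chromosome 11 carried 7 H3K9me3 peaks in 3 peak lists, of 2826 peaks in all. Members were the deposited peaks that overlap the 120 kb of chromosome 11 upward from position 5200000 on hg19, a window that holds the genes HBB, HBD, HBG1, HBG2 and HBE1. The control list gave 1 of them (of 1334 peaks), the list after 6 h of TGF-β1 gave 3 (of 1220) and the list after 24 h gave 3 (of 272). The 7 peaks were selected on being called there, from the fold, −log10 p and −log10 q of the same lists, so these values are given as a description with no test. All 7 had a −log10 q of at least 5, as did 41.3% of control peaks, 8.85% of 6 h peaks and 60.3% of 24 h peaks. Of the 7 peaks, 4 lay in HBB itself. No list had a peak at the other 4 globin genes, and the share of all genes that hold a peak was not computed.

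The cells were PC-3, an established prostate adenocarcinoma line from a bone metastasis. Cells of every condition were kept without serum for 24 h. The control was then left untreated, and the treated cells received the cytokine TGF-β1 at 5 ng/mL for 6 h or 24 h. The series has 1 ChIP library with an antibody to H3K9me3 and 1 input library per condition, 6 in all, with no replicate. Peak lists were analysed for the 3 ChIP libraries, and they hold no expression values against which the cell type could be checked.

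The beta-globin genes encode the beta-like chains of hemoglobin, which pair with alpha-like chains to carry oxygen in red blood cells. They stand in the order in which they are used in development, from HBE1 (embryonic) through HBG2 and HBG1 (fetal) to HBD and HBB (adult), and a distant locus control region beyond HBE1 drives them in erythroid cells. Outside that lineage the genes are silent, and the locus is embedded in a large array of olfactory receptor genes that are likewise silent in most tissues. H3K9me3, histone H3 trimethylated at lysine 9, marks constitutive heterochromatin and is known at silent gene arrays. HBB is transcribed toward lower coordinates, so its first exon has the highest ones.

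By summit pileup and −log10 q, the strongest signal of the locus in each list lay over the first and second exons of HBB, and this was the sole region of the window with a peak in all 3 lists. In the control the peak ran from 5247896 to 5248280, with a fold of 2.03 over the local background and a −log10 q of 93.2. At 6 h it ran from 5247807 to 5248326, with a fold of 10.4 and a −log10 q of 730.3. At 24 h it ran from 5247893 to 5248282, with a fold of 2.34 and a −log10 q of 96.4. The control and 24 h peaks thus had nearly the same extent, 385 bp and 390 bp. Their edges lay 3 bp and 2 bp apart, where both edges within 10 bp were found in 14 of 140 overlapping pairs of these lists (10.0%), and the 6 h peak of 520 bp enclosed both. The summit was at the same base, 5248209, in all lists. It lies in exon 1, 92 bp inside the gene from the transcription start. Among all overlapping peak pairs, summits at the same base occurred in 3 of 67 pairs of control and 6 h (4.48%), in 7 of 140 pairs of control and 24 h (5.00%) and in 4 of 47 pairs of 6 h and 24 h (8.51%). The HBB pair is counted in each of these. By overlap alone, 5.02% of control peaks met a 6 h peak and 9.82% met a 24 h peak, and 3.77% of 6 h peaks met a 24 h peak.

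**Figure D1:**
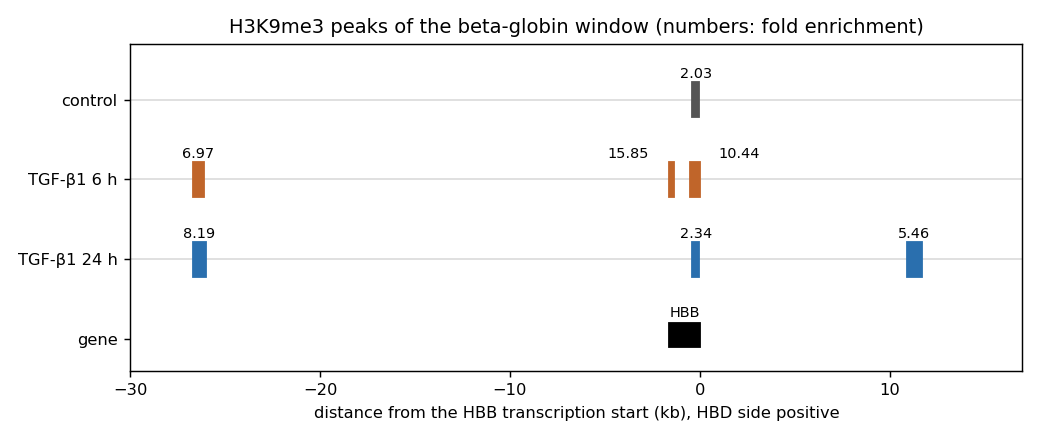
Peaks of the beta-globin window in each list, drawn to scale by distance from the HBB transcription start in kb, with the fold enrichment of each peak printed above it and the HBB gene as a black box. Each list has a peak at the start of HBB (fold 2.03 without treatment, 10.4 after 6 h and 2.34 after 24 h), and the remaining peaks belong to the treated libraries.

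The 6 h list had a further HBB peak that the other lists lacked. It ran from 5246699 to 5246957, 259 bp, with a fold of 15.9 and a −log10 q of 321, and its summit at 5246822 lay in exon 3. The 2 peaks of the 6 h list followed the exons of HBB closely. Exon 3 spans 5246696 to 5246956, so the lower and upper edges of the peak lay 3 bp and 1 bp from its ends, and 258 bp of the exon (98.9%) were covered. Exon 2 spans 5247807 to 5248029, and the lower edge of the other 6 h peak fell on its last transcribed base (0 bp apart). The upper edge of that peak lay 25 bp beyond the end of exon 1 at 5248301, the transcription start. The 849 bp between the peaks corresponded to intron 2, and the short intron 1 lay inside the larger peak. Thus 3 of the 4 edges at 6 h lay within 10 bp of an exon edge. In the control and at 24 h no edge did, since their peaks began 89 bp and 86 bp inside exon 2 and ended 21 bp and 19 bp short of the transcription start.

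**Figure D2:**
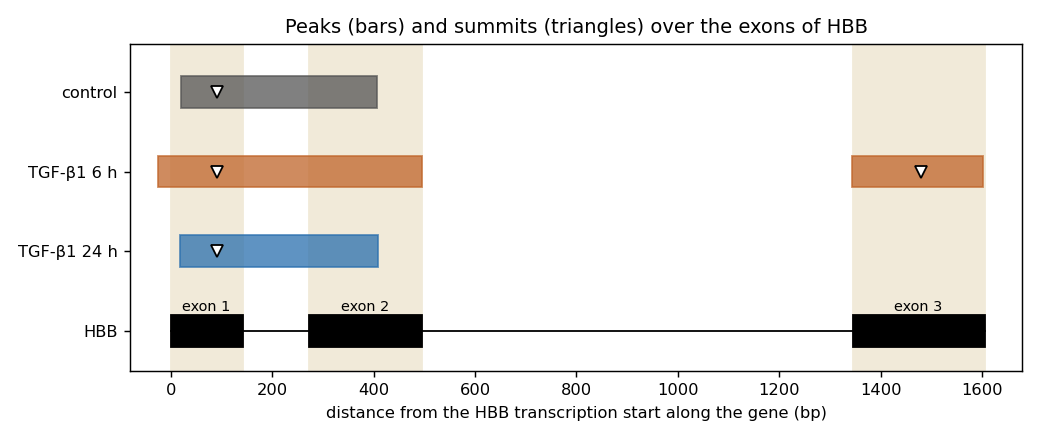
Peaks (bars) and summits (triangles) of each list over HBB, with the distance from the transcription start in bp on the horizontal axis and the 3 exons as black boxes and shaded bands. The summits in exon 1 coincide in all lists at 92 bp, and 3 of the 4 ends of the 6 h peaks lie within 10 bp of an edge of exon 2 or 3, with the fourth 25 bp beyond exon 1.

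The fold of a peak divides the summit pileup of the ChIP library, the number of fragments over that base, by a local background, each with 1 added. Both were recovered from the deposited fold and −log10 p. The recovered pileups were whole numbers of fragments, as counts should be, in all 7 peaks within 0.01. Over the exon 1 summit the untreated ChIP library had a pileup of 1106 fragments (95% exact Poisson interval 1042 to 1173). The 6 h library had 1168 (1102 to 1237) and the 24 h library 825 (769.7 to 883). Over exon 3 it was 401 at 6 h (363 to 442). These intervals cover counting error only, and fragments copied by PCR are not independent. Against the genome-wide background of each library, 1.89, 1.73 and 2.66 fragments, the exon 1 pileup was 586-fold in untreated cells, 677-fold after 6 h and 309.9-fold after 24 h of TGF-β1, and that of exon 3 was 232-fold after 6 h. In fragments, the exon 1 pileups of the control and 6 h libraries had overlapping counting intervals. Relative to its library's background, the pileup was higher at 6 h and lower at 24 h than in the control.

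The local background of HBB differed more between the lists than the pileup did. Over exon 1 it exceeded the genome-wide level 288-fold in untreated cells, 64.3-fold after 6 h and 132-fold after 24 h, and over exon 3 it did so 14.1-fold after 6 h. Among peaks with a whole pileup, local backgrounds of at least 10 times the genome-wide level were found in 24.0% of 1315 control peaks, 2.57% of 1205 peaks at 6 h and 45.9% of 244 peaks at 24 h. The backgrounds of each list moved in steps, and if the local background is read as scaled input, the size of a step gave 1.56 fragments of input for each of ChIP in untreated cells, 5.09 after 6 h and 1.94 after 24 h. On that reading the background over exon 1 equalled 848 input fragments in untreated cells, 565 after 6 h and 682 after 24 h. That over exon 3 equalled 124 after 6 h, and each value lay within 0.00173 of a whole number. The steps were taken from weak backgrounds only and not from HBB. That the caller used the input libraries in this way is inferred from these values. On the same reading, HBB fragments were abundant in the input of each condition as well as in the ChIP.

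Divided by the local background, the exon 1 pileup gave a ratio of 2.03 in untreated cells (exact binomial interval of the 2 counts 1.86 to 2.23), 10.5 after 6 h (9.51 to 11.7) and 2.35 after 24 h (2.12 to 2.60). The exon 3 pileup at 6 h was 16.5 times its background (13.4 to 20.3). The exon 1 interval at 6 h lay above those of the control and of 24 h. These intervals cover counting error alone, in peaks selected on being called, and treat fragments as independent. The higher exon 1 ratio at 6 h came with the lowest local background of the lists, and with a pileup of 1168 fragments against 1106 in the control. With 1 library per condition the spread between cultures is unknown, and a change in H3K9me3 cannot be told apart from a difference between libraries. The control list also differs from the others in its peak names, which lack a word for filtered alignments, and the part of that filter in these values was not tested.

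**Figure D3:**
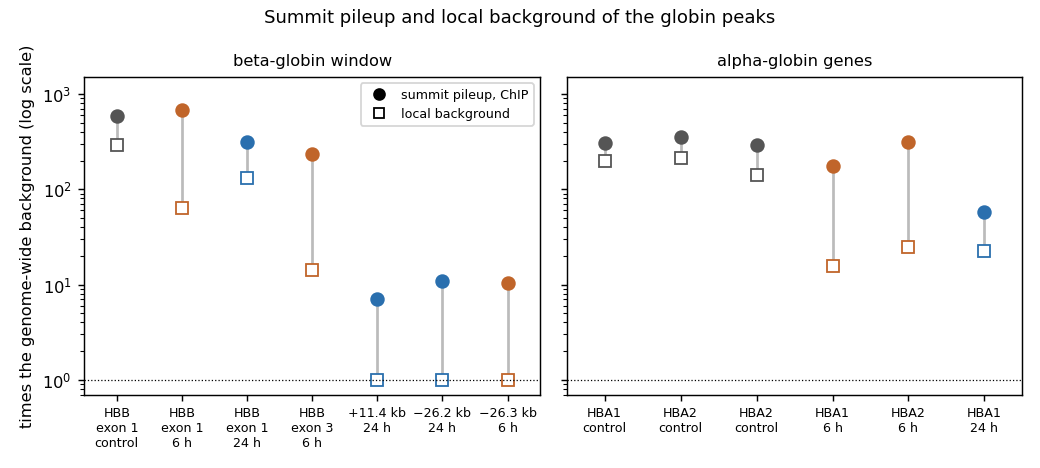
Summit pileup of the ChIP library (filled circles) and local background (open squares) of each globin peak, both as multiples of the genome-wide background on a log axis, in grey for the control, orange for 6 h and blue for 24 h. Over HBB and the alpha-globin genes both values lie far above the dotted line at 1, while the 3 peaks outside HBB have a local background at that line.

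Ranks place the HBB peaks among the others of their list. By −log10 q, the larger HBB peak was number 2 of 1220 at 6 h, 72 of 1334 in the control and 48 of 272 at 24 h. By fold it was number 10 at 6 h but 1282 in the control and 201 at 24 h. Among peaks of chromosome 11 it had the highest local background of the 55 control peaks, the next to highest of the 91 peaks at 6 h (number 2), and was number 3 of 13 at 24 h. The exon 3 peak of the 6 h list was number 5 by fold and 9 by −log10 q.

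The alpha-globin cluster on chromosome 16 had peaks in all lists too. It holds HBA2 and HBA1, which encode identical alpha chains and are so alike in sequence that reads may be assigned to either. In the control, HBA2 had peaks from 222907 to 223277 (fold 1.68) and from 223469 to 223654 (fold 2.04), and HBA1 had a peak from 226711 to 227067 (fold 1.54). At 6 h, HBA2 had a peak from 223147 to 223705 with a fold of 12.4, and HBA1 a peak from 227049 to 227519 with a fold of 10.6. At 24 h, HBA1 alone had a peak, from 227289 to 227509 with a fold of 2.54. The folds of the alpha-globin peaks were therefore near those of HBB within each list, at or below 2.04 in the control, 10.4 to 15.9 at 6 h and 2.34 to 2.54 at 24 h over both clusters.

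The alpha-globin peaks also shared the raised local background. Relative to the genome-wide level it was 141- to 211-fold in untreated cells, 15.8- to 24.8-fold after 6 h and 22.3-fold after 24 h. The ChIP pileup was 289- to 357-fold in untreated cells, 173- to 315-fold after 6 h and 57.1-fold after 24 h. The backgrounds after 6 h were below those of untreated cells and lay on both sides of the 24 h value. Of the 1220 peaks at 6 h, 11 had a fold of at least 10, and 4 of these 11 were globin peaks. In the control 0 of 35 such peaks were globin peaks, and the 24 h list had 0 such peaks. This fold threshold was not among the planned settings and lies just below the lowest globin fold at 6 h. The counts are therefore a description only. Among the 31 peaks at 6 h with a whole pileup and a local background of at least 10 times the genome-wide one, the 4 globin peaks had the 4 highest folds, from 10.4 to 15.9. The other 27 had a median fold of 1.94, and the highest of them, 9.92 and 9.80, came close to the lowest globin fold. This order is a description too, since fold is among the values by which the HBB peaks were selected. In the control, the 3 globin peaks with whole pileups stood at ranks 275 to 308 of 316 such peaks by fold, and at 24 h the 2 globin peaks stood at 49 and 63 of 112.

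**Figure D4:**
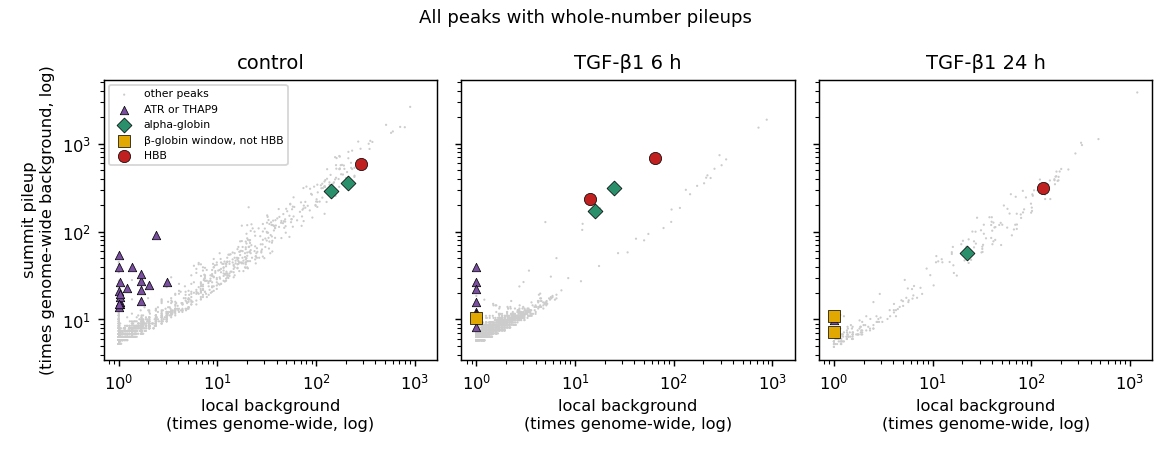
Summit pileup against local background for every peak with a whole-number pileup, both as multiples of the genome-wide background on log axes, with 1 panel per list. At 6 h the HBB (red circles) and alpha-globin peaks (green diamonds) lie above most other peaks of raised background, with a few others beside them. In the control they lie toward the lower side of the band of other peaks, and at 24 h within that band.

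The other erythroid loci examined held no called peak. Windows around GATA1 and KLF1 (erythroid transcription factors), ALAS2 (the erythroid enzyme that starts heme synthesis), SLC4A1 and EPB42 (red cell membrane proteins), AHSP (the chaperone of alpha-globin) and BCL11A (the repressor of fetal globin) held 0 peaks in each list. Of the 8 erythroid loci examined, the alpha-globin cluster was thus the 1 with peaks, 6 in number. A locus without a peak may still carry signal below the caller's threshold. The share of all genes that hold a peak was not computed, so these counts do not set the erythroid loci apart from other genes.

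The remaining 3 peaks of the window lay outside the globin genes, 1 in the 6 h list and 2 in the 24 h list, and had no raised background. The first region began at the same base, 5221581, in both treated lists and overlapped OR51V1, the olfactory receptor gene next to HBB on its downstream side. At 6 h it ended at 5222174 (594 bp), with a fold of 6.97 and a −log10 q of 8.18, from a pileup of 18 fragments (10.7 to 28.4). At 24 h it ended at 5222270 (690 bp), with a fold of 8.19 and a −log10 q of 15.7, from a pileup of 29 fragments (19.4 to 41.6). These pileups were 10.4 and 10.9 times the genome-wide background. Their counting intervals in fragments overlapped, and with counts this small a difference between the treatment times could be missed. The same start in 6 h and 24 h was found in 2 of 47 overlapping pairs (4.26%), this pair included, and the summits were 64 bp apart. The 24 h peak had the highest fold of its list but was number 118 of 272 by −log10 q.

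The last peak, from 5259199 to 5260000 (802 bp), was in the 24 h list alone. It lay 10.9 kb upstream of HBB, in the interval between HBD, the minor adult gene, and the pseudogene HBBP1, about 3.3 kb and 3.1 kb from them. Its fold was 5.46 and its −log10 q 6.17, from a pileup of 19 fragments (11.4 to 29.7), 7.14 times the genome-wide background. With 802 bp and 690 bp, this peak and that at OR51V1 were numbers 4 and 5 of the 272 peaks at 24 h by width. Their local background equalled the genome-wide one, as in 5.33% of 24 h peaks and 12.5% of 6 h peaks with a whole pileup. In the control list, no peak met either region, which does not show that the signal was absent there.

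The nearest peaks outside the window were megabases away in every list. The nearest control peaks lay 4372 kb below and 46259 kb above the window. At 6 h there was no peak below it, and the next above lay at 4161 kb. At 24 h the distances were 5019 kb and 45439 kb. The window held 3 of the 13 peaks of chromosome 11 at 24 h (23.1%), 3 of 91 at 6 h (3.30%) and 1 of 55 in the control (1.82%). The count was 3 at both treatment times, against different totals. The peaks were selected on being called in the window, so these shares are a description only.

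Peaks at ATR on chromosome 3, a checkpoint kinase gene, and at THAP9 on chromosome 4, a gene derived from a DNA transposase, had lower local backgrounds than those of HBB. At ATR, 16 control peaks, 5 at 6 h and 1 at 24 h had pileups of 20 to 171 fragments and local backgrounds of 1 to 3.06 times the genome-wide one. At THAP9, 3 control peaks and 2 at 6 h had 14 to 50 fragments and backgrounds of 1 to 1.22 times. The lowest local background at HBB, 14.1 times, was above all of these. The difference is one of values in single libraries and was not tested. ATR and THAP9 were chosen as the parts of the series most like HBB, with sharp peak edges. Their edges were not set against exons here, so close exon edges are not shown to be particular to HBB.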

How the data were processed

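H3K9me3 ChIP-seq peaks of PC-3 cells were read from 3 lists, 1 per ChIP library, each called without pooling. MACS2 2.1.1.20160309 called them after BWA and Trimmomatic (with FastQC 0.11.9) on hg19, per the submitters' processing notes, and no source used here states the caller's settings. The deposited values are the fold (a linear ratio at the summit), −log10 p, −log10 q, the summit offset and a score, and the deposited score was always −log10 q times 10 with decimals dropped.

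Pileup and local background were solved for each peak from its fold and −log10 p, with the Poisson tail that MACS2 uses (SciPy 1.17.1, Python 3.11.15), in log space so that p-values below the range of the computer's numbers are kept. The solver was tested on simulated data. Whole fragments within 0.01 came out for 98.6% of control, 98.8% of 6 h and 89.7% of 24 h peaks. The genome-wide background is the lowest one of a list. Backgrounds between 1.01 and 4 times it were whole multiples of 1 step, within 0.0005, in 46.4%, 39.8% and 37.9% of peaks (0.156%, 0.509% and 0.194% by chance). The step was searched for and fitted on these same backgrounds. The shares by chance are for a step fixed beforehand, so they are too low for a fitted one. Depth is known only through these values.

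Overlap meant at least 1 bp. Positions are 1-based. HBB's ends came with the rule for the window. Its exon lengths and the hg19 positions of other genes are hand-entered general knowledge, with no supplied annotation behind them. The exon and intron lengths summed to the 1606 bp of HBB, and the spacing of the neighbouring genes differed by at most 86 bp from RefSeq on GRCh38. No hg19 sequence was used. Every peak of the window, the nearest peak on each side, and those of the listed erythroid loci, ATR and THAP9 are named; 1 planned erythroid locus is not reported here. The members, lists and measures were chosen with earlier results of these data known. HBA1 and HBA2 were told apart after their peaks were seen. With 1 library per condition no test between conditions was possible.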

Additional observations from a re-analysis of the deposited data

How the results depend on the processing

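No paired analysis was possible because there were no replicates. When peaks below the median fold of their list were dropped, the control kept 0 peaks of the window, and with HBB alone the 24 h list kept 1. A −log10 q of at least 5 removed no peak of the window in any list. With peaks within 1 kb joined, 0 regions were in the 6 h list alone, because the exon 3 peak joins the region over exons 1 and 2. With the control list left out, an alternative added after seeing the data, 2 regions were shared by 6 h and 24 h. Ranked by −log10 q and by pileup in place of fold, the exon 1 peak was number 72 and 35 in the control (1282 by fold) and 48 and 47 at 24 h (201). At 6 h it was number 2 by −log10 q and 14 by pileup (10). The exon 3 peak was number 9 and 31 (5). The OR51V1 peak was number 62 and 235 at 6 h (27) and 118 and 168 at 24 h (1), and the peak beyond HBD was number 154 and 208 (8). With a tolerance of 25 bp, 1 edge in the control and 1 at 24 h met an exon edge. The multiples of the genome-wide background moved little in the 28 recomputed values, which used the 5th percentile of the backgrounds or unrounded pileups. These alternatives could hardly move them. The 5th percentile was close to the lowest background in each list (1.88756 against 1.88755 in the control, 1.72561 for both at 6 h, 2.67542 against 2.66228 at 24 h). The pileups of the window were whole already. Beyond the steps named, the causes of these shifts were not tested.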
